A study of Mus musculus with 6 samples.

Results

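This account follows 10 genes of the actin cytoskeleton in AML12 cells: the muscle actins Acta1, Acta2, Actg2 and Actc1, the cytoplasmic actins Actb and Actg1, the actin-binding proteins Tagln, Cnn1 and Cnn2, and the non-muscle myosin heavy chain Myh9. They were chosen by gene name, with fold changes of the siSetdb1 against siNC comparison in these same libraries already known. Their values in that comparison are therefore a description, and no p is given for them. Of the 10 genes, 9 had a row among the 25416 genes of the table. Actc1 had none, so it has no expression values here and appears only in the promoter search.

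AML12 is a hepatocyte line whose donor mouse carried a human TGF alpha transgene, and this ligand of the EGF receptor is therefore part of both groups. Of 6 libraries, 3 are from cells transfected with scrambled RNA (siNC) and 3 from cells given siRNA against Setdb1 (siSetdb1), 72 h before RNA was taken. The amount given is listed as 50 nM for all 6 samples. Setdb1 encodes a methyltransferase that places a repressive mark on histone H3. Whether replicates are separate cultures is not stated, so a p-value reflects variation among these libraries alone, which may be technical. The deposited values are FPKM, read numbers scaled by exon length and library total, which allow levels to be compared between genes. Because oligo(dT)-purified RNA of whole cultures was measured, fewer cells of a type and less RNA per cell cannot be told apart.

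Actin filaments are built from proteins that are nearly the same in all tissues. Cytoplasmic beta and gamma actin (Actb, Actg1) are made in nearly every cell, whereas alpha skeletal (Acta1), alpha cardiac (Actc1), alpha smooth muscle (Acta2) and gamma smooth muscle actin (Actg2) are muscle forms. In liver, Acta2 is best known as a mark of activated stellate cells and not of hepatocytes. Many of these genes are controlled by serum response factor (SRF), which binds a DNA sequence called the CArG box together with ternary complex factors, which answer to ERK signalling, or with myocardin-related transcription factors (MRTFs). MRTFs are held inactive by actin monomers, so that the state of actin feeds back on the genes that encode it.

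The libraries held 16790582 to 17835060 reads and 19731 to 20544 genes above 0. Setdb1 itself was at 8.41, 8.54 and 9.43 FPKM in siNC and at 4.29, 4.21 and 3.29 FPKM in siSetdb1, with no overlap. In each group 1 library stood apart from the others. On the first principal component, with 54.8% of the variance, siNC replicate 1 was at -26.7, against -11.7 and -10.8 for the other siNC libraries, and on the second it was at 15.0, against -10.7 and -14.0. On the second, siSetdb1 replicate 3 was at 9.75, against -0.372 and 0.401 for the other siSetdb1 libraries.

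RefSeq promoter windows on GRCm38.p6 were at hand for 7 of the 10 genes, and Actb, Actg2 and Tagln were not searched. They are shown first because the CArG box is the control element that this gene family is known for. In the 250 bases before the annotated start, an exact CArG box, with only A or T between its CC and its GG, was found for Acta1, Actc1, Actg1 and Cnn2, that is 4 of the 7. Among all 32851 windows, 1.47% held one. Allowing 1 G or C in the centre added Acta2, which then made 5 of the 7, where 8.59% of all windows had a match. Both strands were searched, and the box has the same form on either strand. Neither form was found in the windows of Cnn1 and Myh9. The exact boxes began 73 bases before the start of Acta1, 56 before that of Cnn2, 90 before that of Actg1 and 47 before that of Actc1. The lines below give the 120 bases before the start for Acta1 and Cnn2, which had the largest log2 fold changes among the 5 of these genes that were tested, for Actg1, whose values overlap, and for Acta2, which was near 0. Capitals mark the boxes, exact in the first 3 and with 1 G or C in the centre in Acta2.
Acta1 (chr8:123894776-123894895, minus strand): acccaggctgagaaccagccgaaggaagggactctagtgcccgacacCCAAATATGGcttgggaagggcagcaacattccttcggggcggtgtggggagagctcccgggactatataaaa
Cnn2 (chr10:79988480-79988599, plus strand): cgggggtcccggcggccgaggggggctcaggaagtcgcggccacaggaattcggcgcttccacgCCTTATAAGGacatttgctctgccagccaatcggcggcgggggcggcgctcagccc
Actg1 (chr11:120348496-120348615, minus strand): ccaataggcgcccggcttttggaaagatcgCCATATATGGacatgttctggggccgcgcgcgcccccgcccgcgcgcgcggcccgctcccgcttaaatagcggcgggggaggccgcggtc
Acta2 (chr19:34255374-34255493, minus strand): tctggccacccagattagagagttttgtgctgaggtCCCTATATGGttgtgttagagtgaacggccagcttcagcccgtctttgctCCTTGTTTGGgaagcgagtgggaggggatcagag

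**Figure D1:**
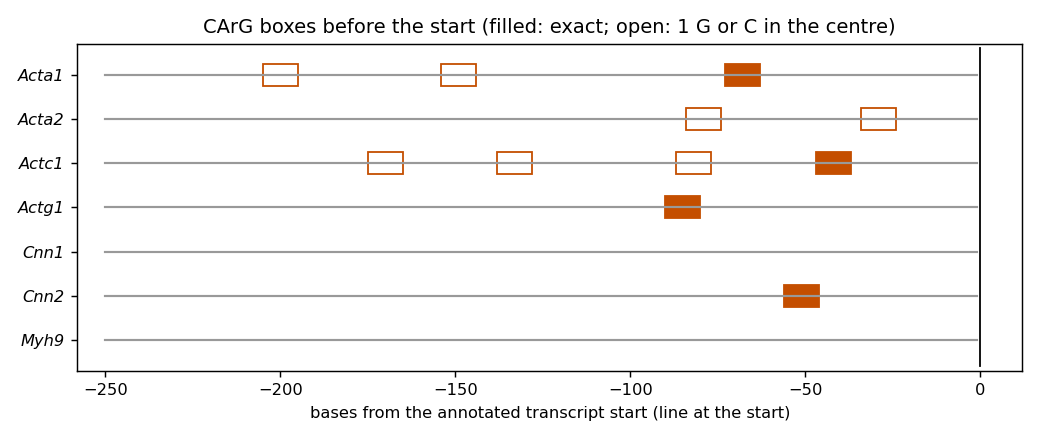
Positions of CArG boxes in the 250 bases before the annotated start of 7 genes, in bases from the start; filled boxes are exact and open boxes have 1 G or C in the centre. Exact boxes lie within 90 bases of the start in Acta1, Actc1, Actg1 and Cnn2, and Cnn1 and Myh9 have none of either kind.

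An exact box stood before genes whose values differed between the groups (Acta1, Cnn2) and before one whose values overlapped (Actg1). A match of letters does not show that SRF was bound there in these cells.

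The cytoplasmic actins made up nearly all actin mRNA, and beta actin alone was higher after the siRNA against Setdb1. Actb (ENSMUSG00000029580, mm10 chromosome 5, 142903115 to 142906754) was at 1469.8, 1177.9 and 1293.9 FPKM in siNC and at 1561.9, 1819.6 and 1910.1 FPKM in siSetdb1. All siSetdb1 libraries lay above all siNC libraries, though siNC replicate 1 and siSetdb1 replicate 1 were close. The means were 1313.9 ± 147.0 and 1763.8 ± 180.7 FPKM (SD, n = 3), a ratio of 1.34. The log2 fold change on the log2(FPKM + 1) scale was 0.43 (SE 0.11), with 0.51 without siNC replicate 1 and 0.37 without siSetdb1 replicate 3. Actb took 0.352% ± 0.039 of all reads in siNC and 0.473% ± 0.048 in siSetdb1. By FPKM it ranked between 21 and 33 among all genes in the siNC libraries and between 11 and 13 in the siSetdb1 libraries.

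Actg1 (ENSMUSG00000062825, chromosome 11, 120345690 to 120348542) was at 709.7, 621.7 and 650.5 FPKM in siNC and at 662.2, 639.5 and 707.3 FPKM in siSetdb1. The groups overlapped, and the log2 fold change was 0.02 (SE 0.08). Its read number was 28758 in the lowest library and 33531 in the highest. Its gene model shares sequence with other loci: 37.4% of its stretches of 50 bases, the read length, also occur in other annotated transcripts. Most of these are in the processed pseudogene Gm12715, which was listed at 122.1, 101.5 and 106.1 FPKM in siNC and at 105.4, 109.0 and 149.5 FPKM in siSetdb1. The split of reads between Actg1 and this locus is therefore uncertain.

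The ratio of beta to gamma actin mRNA followed Actb. Actb FPKM divided by Actg1 FPKM was 2.07, 1.89 and 1.99 in siNC and 2.36, 2.85 and 2.70 in siSetdb1, without overlap. As a share of the summed FPKM of the 5 actin genes, Actb was at 66.5% ± 0.99 in siNC and 72.3% ± 1.95 in siSetdb1 (SD, n = 3). This difference of 5.84 percentage points lay between 5.03 and 6.92 when any 1 library was left out. Counting the reads of Gm12715 to Actg1, a choice made after the data were seen, gave 5.88. The sum itself was 2179.7, 1799.8 and 1944.6 FPKM in siNC and 2226.6, 2461.1 and 2621.7 FPKM in siSetdb1.

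**Figure D2:**
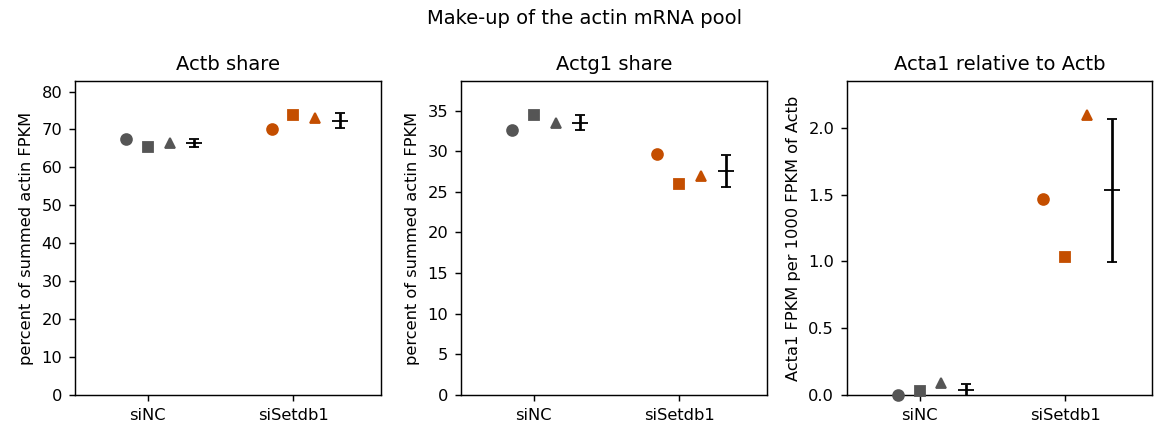
Share of Actb and of Actg1 in the summed FPKM of 5 actin genes (percent), and Acta1 FPKM per 1000 FPKM of Actb, in each library; circles, squares and triangles are replicates 1, 2 and 3, and bars are the mean and SD (n = 3). The Actb share lies at 65.4% to 67.4% in siNC and 70.1% to 73.9% in siSetdb1, and the Actg1 share at 32.6% to 34.5% and 26.0% to 29.7%.

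Of the muscle actins, skeletal actin stood out. Acta1 (ENSMUSG00000031972, chromosome 8, 123891769 to 123894751) was at 0, 0.0374 and 0.114 FPKM in siNC, which correspond to 0, 1 and 3 reads. In siSetdb1 it was at 2.30, 1.87 and 4.02 FPKM, from 61, 49 and 110 reads. The groups were far apart, and siSetdb1 replicate 3 was the highest library for Acta1, as it was for Actb and Cnn2. From 4 reads over the siNC libraries against 220 over the siSetdb1 libraries, the ratio per read sequenced was 54.1, with an exact 95% binomial interval of 20.8 to 200.5 that covers counting error only. Without siNC replicate 3, which held 3 of the 4 siNC reads, the ratio was 144.2, and without siNC replicate 1, which held none, it was 36.4. Leaving out siSetdb1 replicate 3 gave 41.1. The fitted log2 fold change was 1.79 (SE 0.20), a figure that depends on the pseudocount, and it was 4.23 with a pseudocount of 0.1 FPKM and 5.63 with limma-voom on reads. Even in siSetdb1, Acta1 made up only 0.111% ± 0.039 of the summed actin FPKM.

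Because Actb is so abundant, stretches that Acta1 shares with it bear on this value. Of 1534 stretches of 50 bases in Acta1 transcripts, 28 occur unchanged in Actb or Actg1 transcripts, and 94 (6.13%) do so with up to 2 mismatches. Acta1 per 1000 FPKM of Actb was 0, 0.0318 and 0.0879 in siNC and 1.47, 1.03 and 2.10 in siSetdb1. Relative to siNC, Acta1 was raised more than Actb in every siSetdb1 library, while in plain FPKM the difference was larger for Actb. How far reads of shared stretches enter the Acta1 value was not tested.

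Smooth muscle actins were at the edge of detection. Acta2 (ENSMUSG00000035783, chromosome 19, 34241090 to 34255590) had 2, 2 and 3 reads in siNC, or 0.0542, 0.0523 and 0.0795 FPKM, and 0 reads in each siSetdb1 library. A sum of 0 allows up to 3 reads over the group, or 0.0262 FPKM. This floor was 2.37-fold below the siNC level when the 7 siNC reads are taken without error. With counting error on both sides, the exact 95% interval of the ratio reached up to 0.683. Actg2 (ENSMUSG00000059430, chromosome 6, 83512905 to 83536265) had 3, 1 and 0 reads in the siNC libraries, against 6, 4 and 8 after siSetdb1. The sums of 4 and 18 reads gave a ratio of 4.43 with an exact 95% interval of 1.46 to 18.0. Like those given for Acta2, Cnn1 and Tagln, this interval covers counting error only and leaves out other variation between libraries. The ratio was 11.9 without siNC replicate 1 and 2.95 without siNC replicate 3. Acta2 and Actg2 thus lay on opposite sides in the siSetdb1 libraries, each on at most 8 reads per library.

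**Figure D3:**
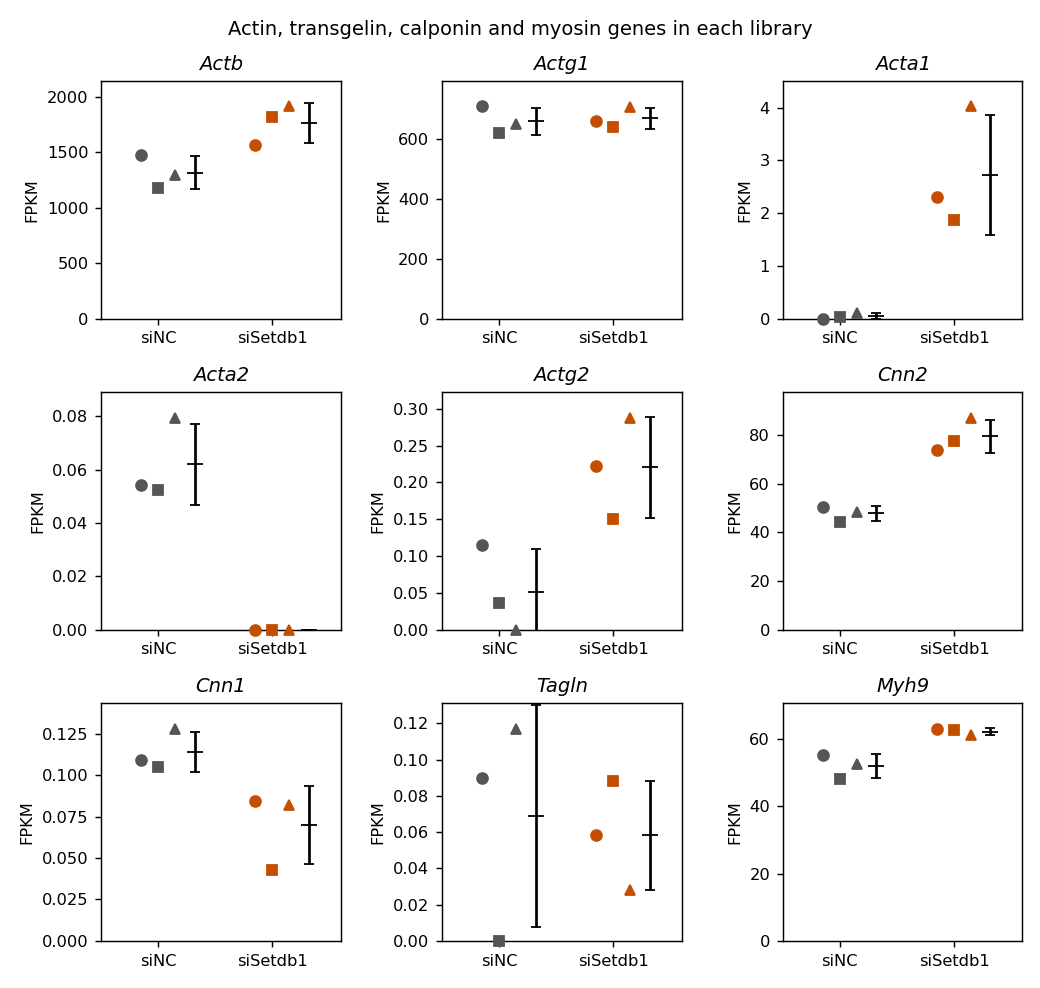
FPKM of 9 genes in each siNC and siSetdb1 library, each panel with its own axis from 0; circles, squares and triangles are replicates 1, 2 and 3, and bars are the mean and SD (n = 3). Actb, Acta1, Cnn2 and Myh9 are higher in all siSetdb1 libraries, and Actg1 overlaps. Acta2, Actg2, Cnn1 and Tagln stay below 0.3 FPKM, from 0 to 8 reads per library. Of these low genes, Actg2 is higher and Acta2 and Cnn1 are lower in all siSetdb1 libraries, and Tagln overlaps.

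The actin-binding proteins divided by level. Calponins bind actin and tropomyosin and restrain the myosin motor. Calponin 2 (Cnn2), the form found in many non-muscle cells, was at 50.6, 44.4 and 48.5 FPKM in siNC and at 73.8, 77.4 and 87.2 FPKM in siSetdb1 (ENSMUSG00000004665, chromosome 10, 79988584 to 79996062). The groups did not overlap, the ratio of means was 1.66, and the log2 fold change was 0.72 (SE 0.09), with 1899 to 3825 reads per library. None of its stretches of 50 bases occurs in another annotated gene.

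Calponin 1 (Cnn1), the smooth muscle form, had only 5, 5 and 6 reads in siNC and 4, 2 and 4 in siSetdb1 (ENSMUSG00000001349, chromosome 9, 22099216 to 22109630). Its ratio of 0.615 had an exact 95% interval of 0.25 to 1.44, so that a difference was not detectable at this depth. Transgelin (Tagln), an actin cross-linker used as a smooth muscle marker, had 3, 0 and 4 reads in siNC and 2, 3 and 1 in siSetdb1 (ENSMUSG00000032085, chromosome 9, 45929619 to 45936058). Its ratio was 0.844 (exact 95% interval 0.234 to 2.93), with 0.558 without siNC replicate 2 and 1.31 without siNC replicate 3. An annotated gene on the opposite strand, Gm48529, holds 1098 of the 1983 stretches of 50 bases of Tagln and reached at most 0.231 FPKM. Pcsk7, which reached 7.98 FPKM, holds 59 stretches of Tagln. No strand-marking step appears in the library protocol, and reads of the shared stretches cannot be told apart.

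Myh9 encodes the heavy chain of the non-muscle myosin that pulls on actin filaments in most cells. It was at 55.2, 48.1 and 52.6 FPKM in siNC and at 63.1, 62.6 and 61.1 FPKM in siSetdb1 (ENSMUSG00000022443, chromosome 15, 77760587 to 77842175). The siSetdb1 libraries lay close together and above all siNC libraries. The mean was 19.8% higher and the log2 fold change 0.26 (SE 0.07), smaller than that of Actb, Cnn2 or Acta1. The gene model is covered by 10818 to 14087 reads per library.

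The order of levels was Actb, Actg1, then Myh9 and Cnn2, with the remaining 5 genes below 0.2 FPKM in siNC. In siNC, Myh9 (52.0 ± 3.6 FPKM) and Cnn2 (47.8 ± 3.15 FPKM) did not differ beyond their spread. In siSetdb1, Cnn2 (79.5 ± 6.93 FPKM) stood above Myh9 (62.2 ± 1.02 FPKM), and Acta1 (2.73 ± 1.14 FPKM) stood above the other low genes.

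In the fit across all 12846 genes that reached 0.5 FPKM in 3 libraries (limma, Benjamini-Hochberg adjusted p under 0.05), 15.1% of genes passed, 6.87% higher and 8.27% lower in siSetdb1. Of the 10 genes, 5 were tested, and 4 of them (Acta1, Actb, Cnn2 and Myh9) passed as higher. Nothing is read from this count, since the genes were listed with this comparison in view and Acta1 entered the test only through its siSetdb1 libraries. The share of all genes whose groups did not overlap is not given here. The lack of overlap in single genes is therefore a description only. Actb and Myh9 did not pass without siNC replicate 2, siNC replicate 3 or any 1 siSetdb1 library.

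The other genes of the actin system changed in both directions. In 7 lists of SRF partners, SRF targets and actin-associated proteins, 109 distinct genes were tested, of which 17 rose, 8 fell and 84 did not pass. That is 22.9% against 15.1% of all genes, and the median log2 fold change was 0.07 against -0.018 over all genes. The lists were chosen with earlier results of these data known, so the higher share is a description and not a test. Without siNC replicate 1 these counts were 21 and 9. They were 9 and 3 without siNC replicate 2, and 6 and 2, 6 and 1, and 6 and 3 without siSetdb1 replicates 1, 2 and 3. Over all genes, 883 rose and 1062 fell, with 1101 and 1075 without siNC replicate 1 and 486 and 574 without siNC replicate 2. Without siSetdb1 replicates 1, 2 and 3 they were 363 and 326, 355 and 328, and 457 and 521. Calls were thus lost among all genes in these fits, which also bears on the counts of the single lists below. Each of those counts is to be read beside 6.87% of all genes higher and 8.27% lower, and none is a test. Of the 25 genes that passed, 6 that rose (Fhl2, Thbs1, Rhob, Flnc, Actr2 and Spire1) and 1 that fell (Myl12a) also passed without any 1 library.

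Among SRF and its cofactors, 1 of 10 tested genes rose and 1 fell. Srf itself, named here outside the rule for named genes, was at 12.3 ± 1.28 FPKM in siNC and 12.7 ± 1.93 FPKM in siSetdb1 and did not pass (limma adjusted p = 0.866). The MRTF gene Mrtfa was at 13.9 ± 1.07 and 16.3 ± 0.64 FPKM (limma adjusted p = 0.0912), passing only without siNC replicate 1 among the fits that left out a library, and Mrtfb at 4.61 ± 0.07 and 5.05 ± 0.22 FPKM (limma adjusted p = 0.323). Myocd, the cofactor of muscle cells, was at most 0.0371 FPKM in any library. Fhl2, a LIM protein that binds SRF, rose from 30.9 ± 1.79 to 46.1 ± 0.53 FPKM (log2 fold change 0.56, limma adjusted p = 0.00306). Csrp2, a LIM protein known from smooth muscle, fell from 25.1 ± 2.81 to 17.5 ± 0.13 FPKM (limma adjusted p = 0.013), and did not pass without siSetdb1 replicate 1 or 2.

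Among cytoskeletal targets of SRF and MRTF, 6 of 17 tested genes rose and 2 fell, with a median log2 fold change of 0.21. That is 47.1%, against 15.1% of all genes, in a list chosen with earlier results of these data known, so it is not a test. Thbs1, the gene of the matrix protein thrombospondin 1, rose from 5.22 ± 0.98 to 9.10 ± 0.71 FPKM (log2 fold change 0.71, limma adjusted p = 0.0113). Cald1, the gene of the tropomyosin-binding protein caldesmon, rose from 47.1 ± 7.08 to 67.4 ± 3.30 FPKM (limma adjusted p = 0.023). The call of Cald1 was lost without any 1 siSetdb1 library. Vcl, the vinculin gene, and Zyx, the zyxin gene, are well-known targets and did not pass, at 14.7 and 16.1 FPKM and at 30.7 and 32.8 FPKM. Without siSetdb1 replicate 1, 2 or 3 the count that rose was 2 each time, without siNC replicate 2 it was 4, and none fell without any of these or siNC replicate 3.

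Among the myosin partners of Myh9, 1 of 18 tested genes rose and 1 fell. Rhob, an immediate-early gene, rose from 56.1 ± 8.95 to 96.3 ± 7.37 FPKM (log2 fold change 0.78, limma adjusted p = 0.00784). Myl12a, a regulatory light chain of non-muscle myosin, fell from 21.5 ± 1.66 to 14.5 ± 1.22 FPKM (log2 fold change -0.54, limma adjusted p = 0.00816). Myh10, the gene of another non-muscle heavy chain, stayed at or below 0.241 FPKM in all libraries, so that Myh9 supplied far more heavy-chain mRNA than Myh10.

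Cnn3 and Tagln2, relatives of calponin and transgelin, did not pass. Cnn3 was at 108.4, 102.5 and 102.6 FPKM in siNC and at 100.9, 98.6 and 100.3 FPKM in siSetdb1 (limma adjusted p = 0.508) and Tagln2 at 346.2 ± 26.1 and 383.2 ± 17.8 FPKM (limma adjusted p = 0.248). Both were far above Tagln and Cnn1 in FPKM in every library. Of 9 tested genes in this list, 2 rose and 2 fell. Tpm4, a tropomyosin of non-muscle cells, rose from 165.3 ± 10.6 to 212.0 ± 5.75 FPKM (limma adjusted p = 0.0181), and Smtnl2, a smoothelin-like gene, fell from 14.5 ± 1.21 to 9.70 ± 1.64 FPKM (limma adjusted p = 0.0243). Tpm4 did not pass without any 1 siSetdb1 library, nor Smtnl2 without siNC replicate 2 or 3 or siSetdb1 replicate 2 or 3. In this list 0 rose without any 1 siSetdb1 library, and 0 fell without siNC replicate 2 or 3 or siSetdb1 replicate 2 or 3.

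Among filament cross-linkers and adhesion proteins, 4 of 21 tested genes rose and 0 fell by limma. At an unadjusted p under 0.05 these counts were 7 and 0, and by limma-voom 4 and 0. Flnc, a filamin gene of muscle, rose from 21.0 ± 2.86 to 37.4 ± 2.34 FPKM (log2 fold change 0.81, limma adjusted p = 0.00431). Pls3, a plastin gene, rose from 22.5 ± 4.65 to 36.8 ± 1.72 FPKM (limma adjusted p = 0.0203), and Flna, the abundant filamin, from 118.5 ± 6.87 to 145.1 ± 7.46 FPKM (limma adjusted p = 0.0382). Neither Pls3 nor Flna passed without any 1 siSetdb1 library, nor Flna without siNC replicate 2 or 3. The list held 1 call without any 1 siSetdb1 library and 2 without siNC replicate 2 or 3.

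Genes of actin nucleation and turnover moved both ways. Actr2, a core subunit of the ARP2/3 complex that starts branched filaments, rose from 57.9 ± 11.4 to 101.9 ± 2.68 FPKM (log2 fold change 0.82, limma adjusted p = 0.0106), with siNC replicate 1 the lowest library at 44.9 FPKM. Spire1, a nucleator of straight filaments, rose from 9.09 ± 0.31 to 12.7 ± 0.43 FPKM (limma adjusted p = 0.0066), and the formin gene Daam1 from 5.57 ± 0.96 to 7.90 ± 0.29 FPKM (limma adjusted p = 0.0375). Of 23 nucleators 4 rose and 2 fell. Of 19 turnover genes 3 rose and 1 fell: Dstn, the gene of the filament-severing protein destrin, fell from 398.6 ± 26.0 to 304.8 ± 17.9 FPKM (limma adjusted p = 0.0202). Capg and Cap1, genes of a capping protein and a monomer-binding protein, rose by 0.36 and 0.27 on the log2 scale. Without siSetdb1 replicate 1 or 2, 2 nucleators and no turnover gene passed. Without siNC replicate 2 or siSetdb1 replicate 3, 2 nucleators rose and 0 fell, and 1 fell without siNC replicate 3. Daam1, Capg and Cap1 also lost their calls without siNC replicate 2 or siSetdb1 replicate 3, and Capg and Cap1 without siNC replicate 3.

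**Figure D4:**
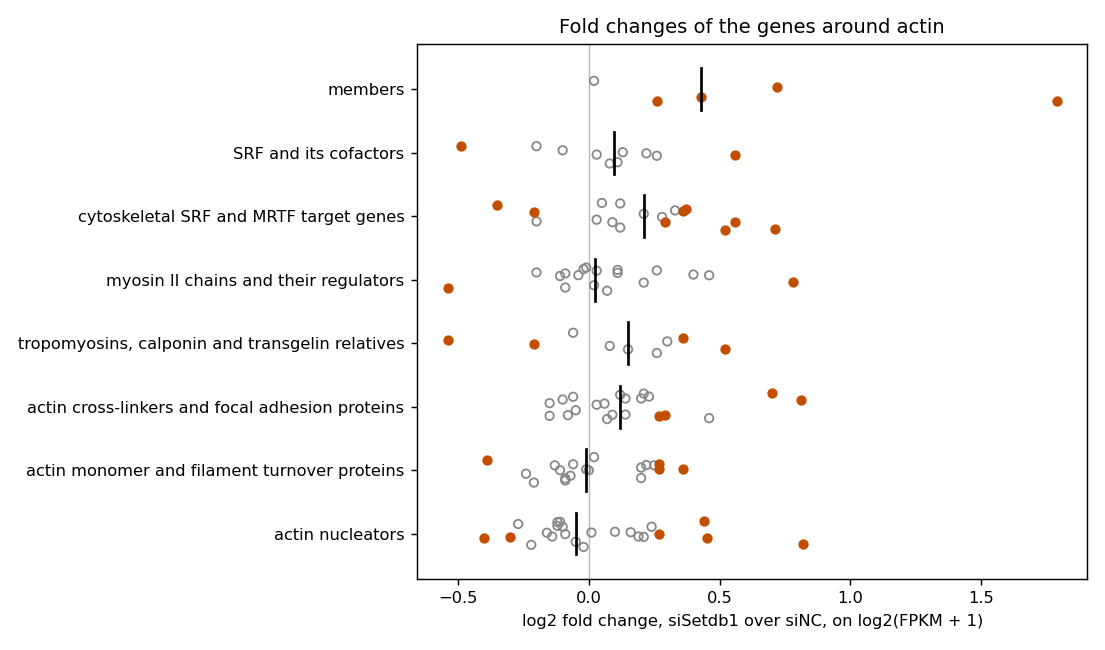
Log2 fold change (siSetdb1 over siNC, from log2(FPKM + 1) values) for each tested gene of the 10 described here (top row, "members") and of 7 lists of actin-related genes; filled points passed the test, open points did not, and black bars are medians. Acta1 at 1.79, a value that depends on the pseudocount, lies outside the range of all 7 lists, whose medians run from -0.05 to 0.21. Acta1 was listed with this comparison known and entered the test only through its siSetdb1 libraries, so nothing is read from its place.

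Markers of cells that make these muscle proteins were looked up beside the values above. Of 14 smooth muscle markers 5 were tested and 0 passed by limma, 0 had an unadjusted p under 0.05, and 0 passed by limma-voom. Their summed level was 66.8 to 78.0 FPKM in siNC and 71.5 to 78.2 FPKM in siSetdb1, nearly all of it Smtn (51.9 ± 5.35 and 54.8 ± 4.18 FPKM), Hspb6 (14.0 ± 0.13 and 14.0 ± 0.80 FPKM) and Mylk (3.78 ± 0.41 and 3.85 ± 0.32 FPKM). The smooth muscle myosin gene Myh11 was at most 0.0153 FPKM and Lmod1 at most 0.133 FPKM. Of 31 striated muscle genes 20 had a row, and 17 of these were below 0.5 FPKM in each library. One rose: Tnnt2, a cardiac troponin gene, was at 3.37, 3.45 and 3.45 FPKM in siNC and at 6.77, 9.16 and 7.95 FPKM in siSetdb1 (log2 fold change 1.01, limma adjusted p = 0.00196). The summed level of this list was 7.70 to 9.13 FPKM in siNC and 11.3 to 14.0 FPKM in siSetdb1. Tnnc1 was at 2.29 ± 0.55 and 2.12 ± 0.22 FPKM and Mylpf at 2.28 ± 0.41 and 1.75 ± 0.34 FPKM, and neither passed.

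Stellate cell and fibroblast markers were low, and of the 2 that were tested 0 passed as higher. The summed level of this list was 2.91 to 4.14 FPKM in siNC and 2.31 to 2.59 FPKM in siSetdb1, and 10 of the 12 with a row were below 0.5 FPKM throughout. Postn, the periostin gene, fell from 2.97 ± 0.70 to 1.32 ± 0.11 FPKM (limma adjusted p = 0.0135), and did not pass without siSetdb1 replicate 1. Des was at 0.472 ± 0.021 and 0.742 ± 0.212 FPKM (limma adjusted p = 0.193), and Col1a1, too low to be tested, at 0.148 and 0.231 FPKM. Both were higher in all siSetdb1 libraries than in any siNC library. Pdgfrb was listed at 0 in all siSetdb1 libraries. Endothelial and leukocyte markers summed to 4.30 to 6.39 FPKM in siNC and 2.31 to 3.23 FPKM in siSetdb1, mostly Cd68, which fell from 5.27 ± 1.07 to 2.48 ± 0.46 FPKM (limma adjusted p = 0.012) and did not pass without siSetdb1 replicate 2. Csf1r was at 0.152 and 0.0794 FPKM and Cdh5 at 0.0466 and 0.132 FPKM. The part of these marker levels in the values of the actin genes was not tested.

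The label of a hepatocyte line was borne out in part. Hnf4a, a defining factor of hepatocytes, was at 34.7 ± 4.10 and 29.8 ± 2.62 FPKM, and the keratin genes Krt8 (1266.5 ± 118.4 and 1359.1 ± 59.5 FPKM) and Krt18 were abundant. Alb, the albumin gene, was only at 7.93 ± 5.54 FPKM in siNC and 2.61 ± 1.65 FPKM in siSetdb1. Its groups overlapped, and it did not pass (limma adjusted p = 0.107). Another marker, Apob, had the higher mean in siSetdb1, at 7.83 ± 3.44 and 10.3 ± 1.30 FPKM. It also overlapped and did not pass (limma adjusted p = 0.344). Of 11 tested hepatocyte markers 3 fell and 1 rose. The plasma protein genes Trf and Ttr fell, with log2 fold changes of -1.39 and -1.91 (limma adjusted p = 0.00816 and 0.0247), the latter not without siNC replicate 1 or 3 or siSetdb1 replicate 1 or 2. Cebpa, the gene of a hepatocyte transcription factor, fell from 0.716 to 0.311 FPKM and did not pass without any 1 library. Krt18 rose from 1633.2 ± 100.4 to 2012.1 ± 64.2 FPKM (limma adjusted p = 0.0364) and passed in none of the fits that left out a library other than siNC replicate 1.

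The genes whose profiles over the 6 libraries lay nearest to that of Acta1 were Dusp5, Prl2c3, Fos, Sdcbp2 and Gm3776. The measure was the Euclidean distance between log2(FPKM + 1) values centred on each gene's own mean, over 12845 other tested genes. Dusp5, a phosphatase gene of the ERK pathway, lay at a distance of 0.392 and was at 9.37, 8.92 and 10.7 FPKM in siNC and at 26.8, 31.6 and 41.5 FPKM in siSetdb1. Prl2c3, a proliferin gene, lay at 0.404 with 0.131, 0.0845 and 0.385 FPKM against 3.23, 3.32 and 4.86 FPKM. Fos, an immediate-early gene and a well-known SRF target, lay at 0.493 with 2.81, 2.71 and 2.95 FPKM against 10.1, 11.0 and 12.3 FPKM. In each of these 3 genes, as in Acta1, siSetdb1 replicate 3 was the highest library. They were picked for nearness over these same libraries, which favours a shared highest library. Sdcbp2 lay at 0.535 and Gm3776 at 0.585. For Acta2, at 0 to 3 reads, the profile is almost flat, and the nearest genes (Tmem268, Ensa, Pcnx, Cops4 and Fip1l1, at distances of 0.0355 to 0.0521) are likewise nearly flat. Nearness of profile over 2 groups of 3 libraries mainly reflects the size of the group difference on the log2(FPKM + 1) scale. The added 1 FPKM shrinks this difference for a low gene such as Acta1. In plain FPKM the ratio of means was 54.2 for Acta1, against 3.45 for Dusp5, 19.0 for Prl2c3 and 3.94 for Fos. The ranking therefore depends on the pseudocount, and nearness here does not mean a similar fold change.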

How the data were processed

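The authors' table holds 1 value per gene and library. Its headers name no unit; the deposited values behave as FPKM. Build mm10 and the tools RSEM 1.2.12, HISAT2 2.0.4, DESeq2 1.4.5 and Bowtie2 2.2.5 are named, without role or order, per the submitters' processing notes. Reads were recovered as whole multiples of 1 step per gene, with exon lengths of GENCODE M21 (GRCm38), for 98.8% of 25347 genes within 0.01. FPKM divides by the library total, so a gain in abundant genes lowers the rest.

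Genes with at least 0.5 FPKM in 3 libraries were tested with limma (version 3.58.1, R version 4.3.3) on log2 of FPKM plus 1 (trend and robust prior, two-sided, Benjamini-Hochberg), a script tested on simulated data. The threshold was an adjusted p of 0.05. Samples were grouped by title. Within groups, libraries differed by more than sampling noise, with a chi-square of 4.69 to 23.9 per degree of freedom. The members and lists were chosen with earlier results of these data known. Named genes were the members, up to 3 passing genes per list with the largest fold change, the 3 most abundant of each list of cell type markers, the 5 genes nearest to Acta1 and to Acta2, and Setdb1. Alternatives were a pseudocount of 0.1, no filter, median-ratio scaling, limma-voom on recovered reads, a replicate block and each library left out. Srf, Mrtfa, Mrtfb, Myocd, Vcl, Zyx, Cnn3, Tagln2, Myh10, Myh11, Lmod1, Pdgfrb, Alb and Apob were named after their values were seen. Protein sequences were not used here.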

Additional observations from a re-analysis of the deposited data

How the results depend on the processing

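Over all genes, 883 rose and 1062 fell. With no filter on low values these counts were 460 and 430, and without any 1 library they ranged from 355 to 1101 and from 326 to 1075. With the replicate block they were 480 and 535. Deviations from the group means of same-numbered libraries correlated at -0.157, 0.167 and -0.172 over 12846 genes, not above 0.1 in every pair, so the numbers were not taken to pair the samples. Libraries with different numbers reached 0.283 (siNC replicate 1 with siSetdb1 replicate 3) and 0.144 (siNC replicate 3 with siSetdb1 replicate 1). For the 109 actin-related genes, 17 rose and 8 fell, against 7 and 2 with no filter, 8 and 3 with the block, and 6 to 21 and 1 to 9 without any 1 library. Of the genes described, 4 rose and 0 fell by limma. With no filter 2 rose and 1 (Acta2) fell, with the block 2 rose, and without any 1 library 2 to 4 rose. The difference in the Actb share of actin FPKM was 5.84 percentage points, and 5.03 to 6.92 when any 1 library was left out. Median-ratio scaling cannot change a share within a library. Leaving out 1 of 3 replicates moves a group mean by less than the SD of that group, so nothing further is read from this range. No named gene turned its direction where it had passed. Values under about 10 reads per library (Acta2, Actg2, Cnn1, Tagln) are limited by depth.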
